A study of Mus musculus with 8 samples.

Results

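The genes described here are the molecular chaperones of the cytosol and the mitochondria, with the transcription factor Hsf1. Members were the protein-coding genes whose symbols name an HSP70 or HSP110 protein (Hspa and Hsph1), an HSP90 protein of the cytosol, a small heat shock protein (Hspb), the mitochondrial chaperonin pair Hspd1 and Hspe1, a subunit of the CCT ring (Cct2 to Cct8 and Tcp1) or a J-domain protein (Dnaja, Dnajb and Dnajc). The endoplasmic reticulum chaperones Hspa5, Dnajb9, Dnajb11 and Dnajc3 were left out by that rule, and Hsf1 was added. The rule found 78 genes among the 45777 in the table, of which 21949 are protein-coding. It goes by symbol and not by location, so it also holds J-domain proteins known from endoplasmic reticulum membranes, such as Dnajb12 and Dnajc18. The rule itself uses symbols and no expression values, although the set was picked with earlier results of these data known.

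The libraries were made from colonic organoids, epithelial cultures grown in a gel matrix from crypts, of male mice aged 9 weeks. In one genotype (KO, replicates 5 to 8, named Reg3aΔIEC) exons 2 to 4 of Reg3a lie between loxP sites, placed by CRISPR/Cas9, and are removed by Cre recombinase under the Villin promoter, which is active in intestinal epithelium. The other genotype (WT, replicates 13 to 16, named Reg3afl/fl) carries the same loxP sites, with no Cre named in the labels, so the deletion and the presence of Cre cannot be told apart. C57BL/6J is the strain the labels name. Organoids were harvested 3 days after passage, at passage 15 or earlier, with no treatment, and the study addresses IL-22, Paneth cell metaplasia and wound healing through REG3A. The labels give 1 mouse per genotype in 4 wells in one place and 3 mice per genotype in another. Spread between libraries of 1 genotype may thus be technical only, and p-values and intervals measure no more than that spread. The genotype cannot be told apart from the mouse or organoid line.

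Library totals ran from 37182098 counts (WT 16) to 49256171 counts (WT 14). The targeted gene, Reg3a, had 0 counts in all 8 libraries, so it could not check the labels. Levels are given as CPM, each count divided by the scaled total of its library, and a count of 0 allows at most 0.0609 to 0.0807 CPM, depending on the library, for counting error alone. All 11 listed markers of colonic epithelium passed the low-count filter, and their summed level was 13480 to 13991 CPM in KO and 12153 to 12963 in WT. The marker lists of fibroblasts, endothelium and muscle each summed to at most 1.67 CPM in any library, with Col1a2, Dcn, Lum and Cnn1 at 0. The summed immune markers, at 29.5 to 44.0 CPM, were almost all Cd68, and Cd3e was at 0. In these bulk libraries, fewer cells of a type and less RNA per cell cannot be told apart.

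Chaperones bind unfolded or partly folded proteins and release them after cycles of ATP hydrolysis. HSP70 proteins are handed their clients by J-domain proteins, HSP90 acts later on signalling proteins such as kinases and steroid receptors, and the CCT ring encloses actin and tubulin as they fold. Heat, oxidation and misfolded protein release Hsf1 from its chaperone partners, and Hsf1 then binds repeats of GAA and its complement TTC in the promoters of inducible genes such as Hspa1a, Hspa1b, Hsph1 and Dnajb1. In intestinal epithelium, inducible HSP70 is known for protecting cells against injury.

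The 4 stretches here show how differently these repeats are placed among inducible members. They were taken from the RefSeq promoter windows of GRCm38.p6, which run from 250 bases before to 50 bases after a start site, and are written 5′ to 3′ on the strand of the gene. Capitals mark bases inside a match to the triple repeat GAANNTTCNNGAA (reverse complement TTCNNGAANNTTC) or to either pair of repeats, GAANNTTC or TTCNNGAA, each of which is its own reverse complement and part of the triple. Hspe1 and Hspd1 lie head to head on chromosome 1 and share the stretch shown (chr1:55088053-55088082, plus strand), which the GENCODE annotation places in an untranslated first exon of Hspd1. Dnajb6 is shown at chr5:29735844-29735872 (plus strand), in an untranslated exon of the gene that a predicted gene on the other strand overlaps. Hsph1 is shown at chr5:149636287-149636308 (minus strand), bases 28 to 49 after the start site and also in an untranslated exon. Hspa1b is shown at chr17:34959239-34959438 (minus strand), the 200 bases before the start site, where GENCODE places no exon.
Hspe1: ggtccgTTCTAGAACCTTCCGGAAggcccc
Dnajb6: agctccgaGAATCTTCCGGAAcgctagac
Hsph1: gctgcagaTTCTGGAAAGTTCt
Hspa1b: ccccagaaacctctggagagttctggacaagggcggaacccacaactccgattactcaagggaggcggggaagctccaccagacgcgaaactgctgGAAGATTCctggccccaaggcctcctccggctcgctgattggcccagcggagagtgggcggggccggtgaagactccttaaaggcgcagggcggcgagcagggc
The Hspe1 stretch held 2 overlapping triples and 3 pairs, the Dnajb6 and Hsph1 stretches 1 triple each, and the Hspa1b stretch 1 pair and no triple. The same 200 bases of Hspa1a (chr17:34972157-34972356, minus strand) matched those of Hspa1b at 199 positions, or 99.5%.

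Of the 78 members, 62 had at least 1 promoter window in the RefSeq table, 81 windows in all. Hsp90aa1, Hsp90ab1 and Hspa8 had none there. A triple was present in 4 of these 62 members (6.45%), namely Hspd1, Hspe1, Dnajb6 and Hsph1, against 179 of 27025 genes in the whole table (0.662%). Hspd1 and Hspe1 were counted on the same bases of the stretch they share, so the 4 genes are not 4 separate sites. At least 1 pair was present in 20 members (32.3%) against 4587 genes (17.0%). These are matches of letters within a window and not measured binding. The windows of Dnajb1, named above among inducible genes, held no triple and no pair. Among the 4 members with a window that were lower in KO in the tests given further on, none held a triple and 2 held a pair.

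A few constitutive chaperones carried most of the family's RNA. On the authors' FPKM scale, which divides by transcript length, the highest mean WT levels were those of Hsp90ab1, the constitutive cytosolic HSP90 (786 ± 23.0, SD, n = 4 as in all later values), and Hspa8, the constitutive HSP70 (744 ± 27.3), and their WT libraries overlapped. They were followed at a distance by Hspa9, the HSP70 of the mitochondrial matrix (206 FPKM), and by the CCT subunits Cct5 (183 ± 5.63) and Cct2 (180 ± 9.52), whose WT libraries overlapped each other. Hspd1, the mitochondrial HSP60 (140 FPKM), Hsp90aa1, the stress-inducible cytosolic HSP90 (126 FPKM), and Hspe1, the lid of the HSP60 chamber (97.1 FPKM), came in the same range as the other CCT subunits. Among J-domain proteins Dnaja2 was highest, at 77.2 FPKM.

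The genes that heat shock raises most stood far lower in these untreated organoids. In WT, Hspa1b was at 11.8 FPKM, Dnajb1, the J-domain partner of inducible HSP70, at 10.7, Hspa1a at 7.78, Hsph1, the HSP110 exchange factor, at 6.71, and Hspb1, a small heat shock protein that holds unfolded clients, at 3.39. Hsf1 itself was at 8.15 FPKM in WT. All of these were transcribed in both genotypes. By contrast 13 members did not pass the low-count filter, and 6 of these had no count in any library: Hspb3, Hspb7, Hspb9, Dnajb8, Dnajc5g and Cct8l1. The other untested members were Dnajb3, Dnajb7, Dnajb13, Dnajc5b, Hspb2, Hspb8 and Hspa12b, with at most 39 counts summed over the 8 libraries. The small heat shock proteins, many of which are known from muscle and testis, were the least represented role, with 3 of 8 members tested.

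**Figure D1:**
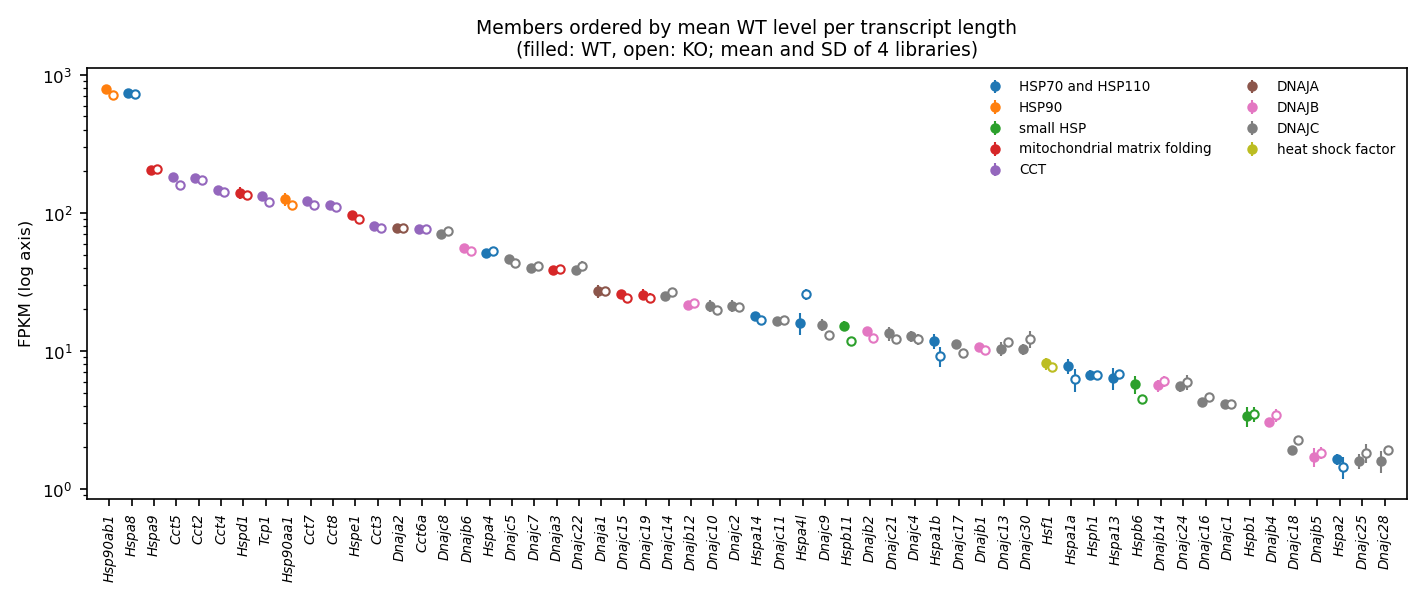
Mean FPKM (log axis) with the SD over 4 libraries for the members with a mean WT level of at least 1 FPKM, ordered by the WT mean, with WT filled, KO open and colours for the role of the gene. Hsp90ab1 and Hspa8 stand above all others at 786 and 744 FPKM in WT, the CCT subunits lie together below them, and Hspa4l is the only member with KO visibly far above WT.

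Between the genotypes the chaperones differed little. Of the 65 members tested, 5 were lower in KO (Cct5, Hsp90ab1, Hspb11, Dnajc9 and Hspa1b) and 1 was higher (Dnajc18) at an adjusted p under 0.05 in edgeR's quasi-likelihood test over all 14945 genes tested. That is 9.23% of members called, where 15.9% of all tested genes were called. The share lower was 7.69% beside 8.26% of all genes, and the share higher was 1.54% beside 7.63%. No member reached a 2-fold change, and the largest change among the called members was that of Hspa1b, which fell by 22.2%. With DESeq2, 9 of the 65 members were lower, a larger share than the 9.62% of the 14365 genes with an adjusted p. The share lower thus stood above that of all genes with DESeq2 and below it with edgeR. DESeq2 called 1 member higher, where 9.3% of all genes were. With limma-voom 5 were lower and 1 was higher, where 7.82% and 7.49% of all genes were.

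Most members were measured closely enough to bound the size of a difference between these 2 sets of libraries. Like the p-values, the intervals measure only the spread between libraries, which may be technical. The 95% interval of the fold change lay within 1.25-fold in either direction for 45 of the 65 members (69.2%), against 55.0% of all tested genes. The called members Cct5 and Hsp90ab1 are among these 45. With no adjustment for the number of genes, the interval lay below 0 for 15 members and above 0 for 7. Of all 14945 tested genes, it lay below 0 for 2177 and above 0 for 2106. Median log2 fold changes, KO over WT throughout, were -0.036 for the members and -0.0012 for all genes, and the median size of the change was 0.09 and 0.11. The fold change was below 0 for 37 members and above 0 for 28. The libraries of the genotypes did not overlap for 9 members, all with KO below (13.8%), where 10.3% of all tested genes had KO below and 9.91% had KO above, 20.2% together.

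**Figure D2:**
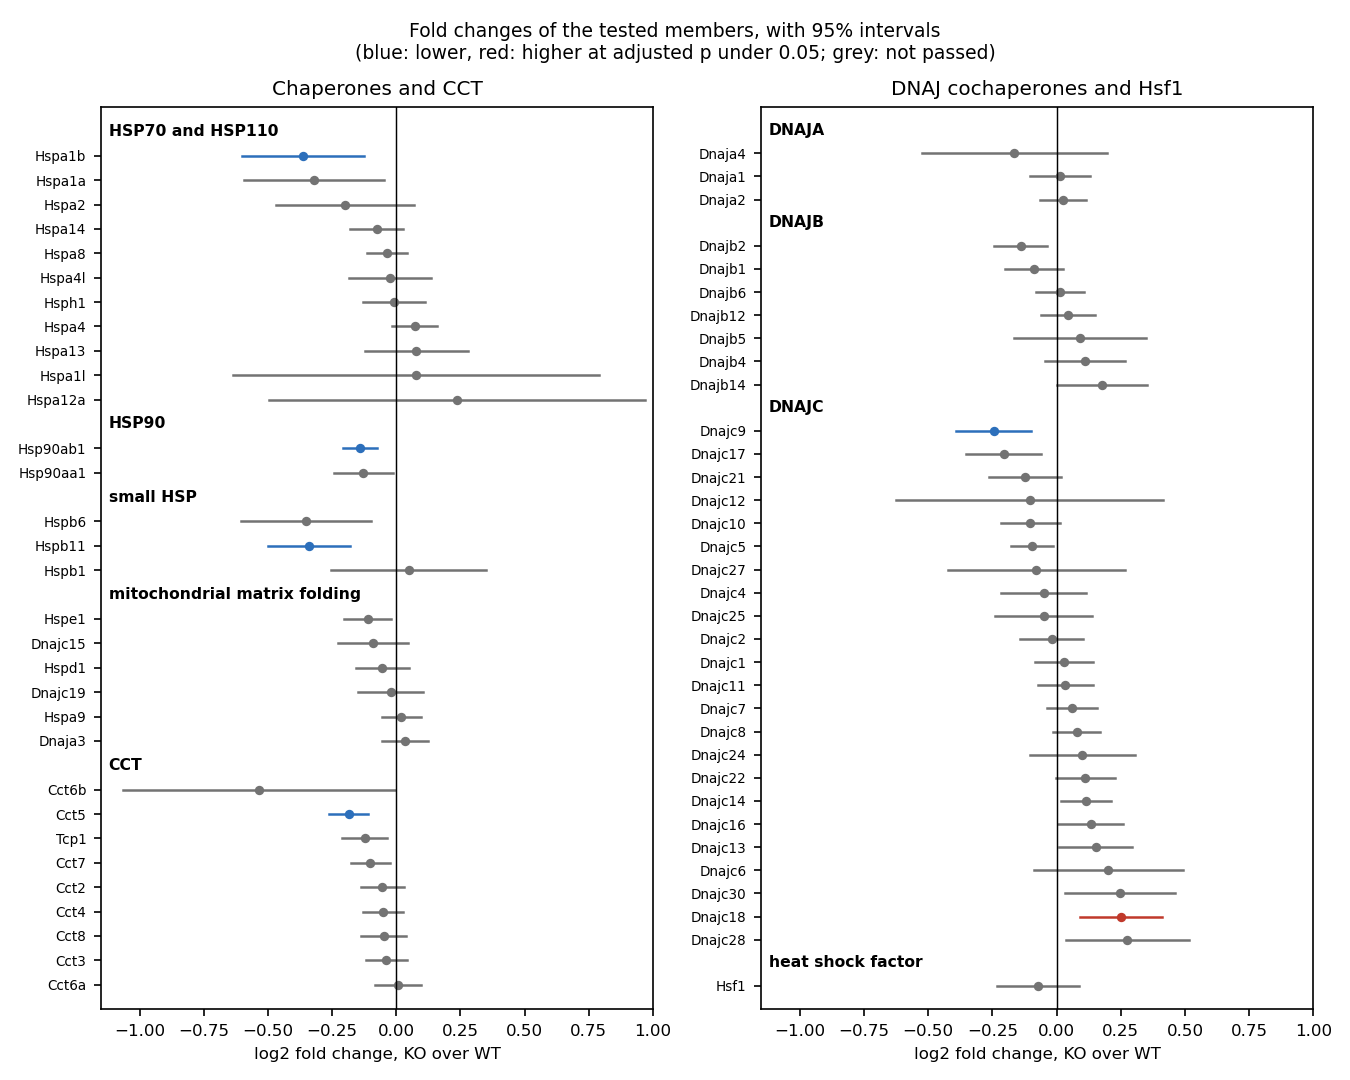
Log2 fold change, KO over WT, with its 95% interval for each of the 65 tested members, grouped by role, with blue for lower, red for higher and grey for genes that did not pass an adjusted p of 0.05. Blue marks Hspa1b, Hsp90ab1, Hspb11, Cct5 and Dnajc9, red marks Dnajc18, and the intervals are widest for genes of low level such as Hspa12a, Hspa1l and Cct6b.

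The CCT ring folds newly made actin and tubulin and has 8 different subunits, here Tcp1 and Cct2 to Cct8 with Cct6a. Cct5, the epsilon subunit (NCBI Gene ID 12465, chr15:31590800-31601846, GRCm38), fell. Its KO libraries (5 to 8) were at 355, 348, 352 and 350 CPM, and its WT libraries (13 to 16) at 398, 386, 402 and 412 CPM. All KO libraries lay below all WT libraries, with a narrow spread in KO. The log2 fold change was -0.19 ± 0.035 (SE) with an edgeR adjusted p of 0.0030, and the level fell by 12.1%. Cct5 stayed past the threshold in all 15 alternative settings, where the highest adjusted p was 0.0158.

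The other subunits of the ring did not pass, and none moved as far. Fold changes for the 9 tested CCT members had a median of -0.055, and 8 of 9 were below 0. Of the subunits named here after their values were seen, Cct7 was at 322 CPM in KO and 346 in WT with no overlap between libraries (log2 fold change -0.10, edgeR adjusted p = 0.0688). Tcp1, the alpha subunit, was at 349 and 380 CPM, with WT 16 at 352 inside the KO range (-0.12, edgeR adjusted p = 0.0599). Cct2, the most abundant subunit by counts, was at 402 and 417 CPM (-0.055, edgeR adjusted p = 0.398), and Cct6a at 193 and 192 CPM (0.01, edgeR adjusted p = 0.956). Cct6b, a copy of Cct6a known from testis, was at only 0.555 and 0.803 CPM.

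Because the subunits sit in the ring in equal number, their levels per length were also set against each other. In WT the 8 subunits spanned 2.38-fold in mean FPKM, from Cct5 down to Cct6a at 76.7, and in KO 2.25-fold. The FPKM ratio of Cct5 to Cct6a was 2.09 ± 0.044 in KO and 2.39 ± 0.165 in WT, with no overlap between libraries. Against Cct3 the Cct5 ratio was 2.05 ± 0.056 in KO and 2.27 ± 0.100 in WT, again with no overlap. The Cct5 ratios to Cct4 and Cct8 did not overlap either, but those to Cct2, Tcp1 and Cct7 did. For example, Cct5 and Tcp1 were at 175 and 137 FPKM in WT 14, and at 162 and 120 FPKM in KO 5. Thus Cct5 did not separate by genotype from every other subunit of the ring. In KO Cct2, at 173 FPKM, stood above Cct5, at 160 FPKM, whereas in WT the libraries of the pair overlapped. These ratios use the same Cct5 counts as the test and give no independent measurement. Summed over the CCT members, KO libraries held 2404 to 2449 CPM and WT libraries 2493 to 2608 CPM, without overlap; without Cct5 the ranges overlapped, at 2054 to 2101 and 2080 to 2222 CPM. Cct5, Tcp1 and Cct7 had the lowest fold changes among the 8 subunits of the ring.

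**Figure D3:**
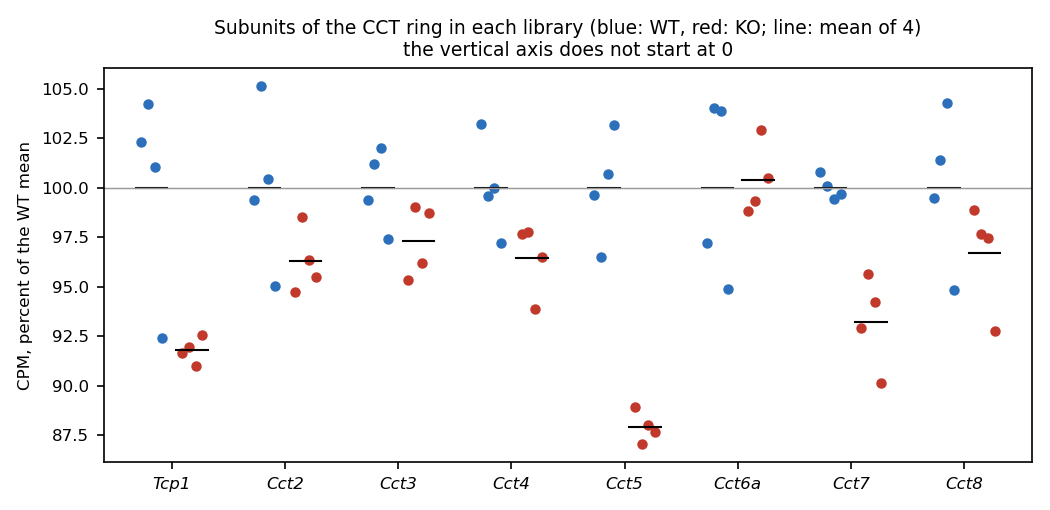
Level of each subunit of the CCT ring in every library as a percentage of that gene's WT mean, in CPM, with WT in blue, KO in red and a line at the mean of 4 libraries (the vertical axis does not start at 0). Cct5 lies lowest in KO with all 4 libraries below all WT libraries, Cct7 also separates, and Cct6a centres near its WT mean.

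HSP90 is represented by a constitutive and an inducible gene, and both were lower on average in KO. Hsp90ab1 (Gene ID 15516, chr17:45567778-45573261) was at 2095, 2108, 2021 and 2031 CPM in KO 5 to 8 and at 2290, 2278, 2291 and 2246 CPM in WT 13 to 16. The genotypes did not overlap. Its log2 fold change was -0.14 ± 0.031 (edgeR adjusted p = 0.0072), so that the level fell by 9.34%, and it passed in all 15 alternative settings. The family's total depended on it: all members summed to 10355 to 10583 CPM in KO and 10654 to 11130 in WT, and without Hsp90ab1 the ranges overlapped, at 8334 to 8488 and 8409 to 8839 CPM. These sums make up 1.05% of all counts in KO and 1.09% in WT.

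Hsp90aa1, the inducible form, was at 374, 374, 378 and 387 CPM in KO and at 422, 396, 459 and 376 CPM in WT. WT 16 lay within the KO range. The difference did not pass (-0.13 ± 0.053, edgeR adjusted p = 0.125), but it passed without WT 16 (-0.17, adjusted p = 0.0309). Of the Hsp90aa1 transcript, 58.5% of 50-base words also occur in transcripts of other genes, mostly predicted ones, so the split of its reads depends on the authors' counting; for Hsp90ab1 the share was 4.49%. The ratio of Hsp90ab1 to Hsp90aa1 in FPKM was 6.21 ± 0.216 in KO and 6.29 ± 0.482 in WT, and these ranges overlapped.

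Among HSP70 and HSP110 proteins, which hold extended peptides, 1 of 11 tested members changed (9.09%, beside 15.9% of all tested genes). Hspa1b, inducible HSP70 (Gene ID 15511, chr17:34956429-34959238), was at 35.0, 27.7, 24.4 and 32.8 CPM in KO and at 37.3, 37.02, 33.5 and 46.3 CPM in WT. KO 5 lay above WT 15, so the genotypes overlapped. Hspa1b fell by 0.36 on the log2 scale (SE 0.11, edgeR adjusted p = 0.0406). The call was lost without KO 6, KO 7, KO 8, WT 13 or WT 16 and without a low-count filter, with adjusted p of 0.0557 to 0.122 and log2 fold changes of -0.41 to -0.26.

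Hspa1a, the neighbouring copy 10120 bases away, was at 23.8, 19.2, 15.0 and 22.6 CPM in KO and at 24.4, 24.0, 22.1 and 30.4 CPM in WT. It did not pass (-0.32 ± 0.126, edgeR adjusted p = 0.108). The libraries stood in the same order for both genes within each genotype, with KO 7 lowest and WT 16 highest. The copies are not independent measurements, since 62.3% of 50-base words of the Hspa1b transcript also occur in Hspa1a and the authors' counting could split or drop such reads. Their FPKM ratio, Hspa1b over Hspa1a, was 1.49 ± 0.086 in KO and 1.52 ± 0.012 in WT.

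The other inducible genes and Hsf1 did not pass. Hsph1 was at 26.9 ± 0.806 CPM in KO and 27.0 ± 1.77 in WT, Dnajb1 at 35.2 ± 1.198 and 37.4 ± 2.11 (edgeR adjusted p = 0.295), and Hspb1 at 3.65 ± 0.462 and 3.54 ± 0.597. Hsf1 was at 20.6 ± 1.12 CPM in KO and 21.7 ± 2.32 in WT (edgeR adjusted p = 0.583). For Hsph1, whose window holds a triple repeat, the 95% interval of the log2 fold change was -0.13 to 0.11, and for Dnajb1 it was -0.20 to 0.02. The fold changes of Hspa1b and Hspa1a were larger in size than those of Hsph1, Dnajb1 and Hspb1, and that difference between genes was not tested. Transcripts that respond to tissue handling also differed in these libraries: 4 of 8 such genes (Fosb, Jun, Egr1 and Atf3) were lower, where 8.26% of all tested genes were. The sum of the 8 was 428 to 489 CPM in KO and 509 to 548 in WT, without overlap. The part of handling in the Hspa1b result was not tested.

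The abundant constitutive HSP70 genes were close in level. Hspa8 was at 1821, 1783, 1695 and 1748 CPM in KO and at 1897, 1769, 1763 and 1798 CPM in WT, overlapping, with a log2 fold change of -0.036 and a 95% interval of -0.12 to 0.04 (edgeR adjusted p = 0.577). Transcripts of other genes, mostly predicted copies, share 74.8% of the 50-base words of Hspa8. Hspa4, an HSP110 exchange factor, was at 287 CPM in KO and 273 in WT (0.07, edgeR adjusted p = 0.275).

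**Figure D4:**
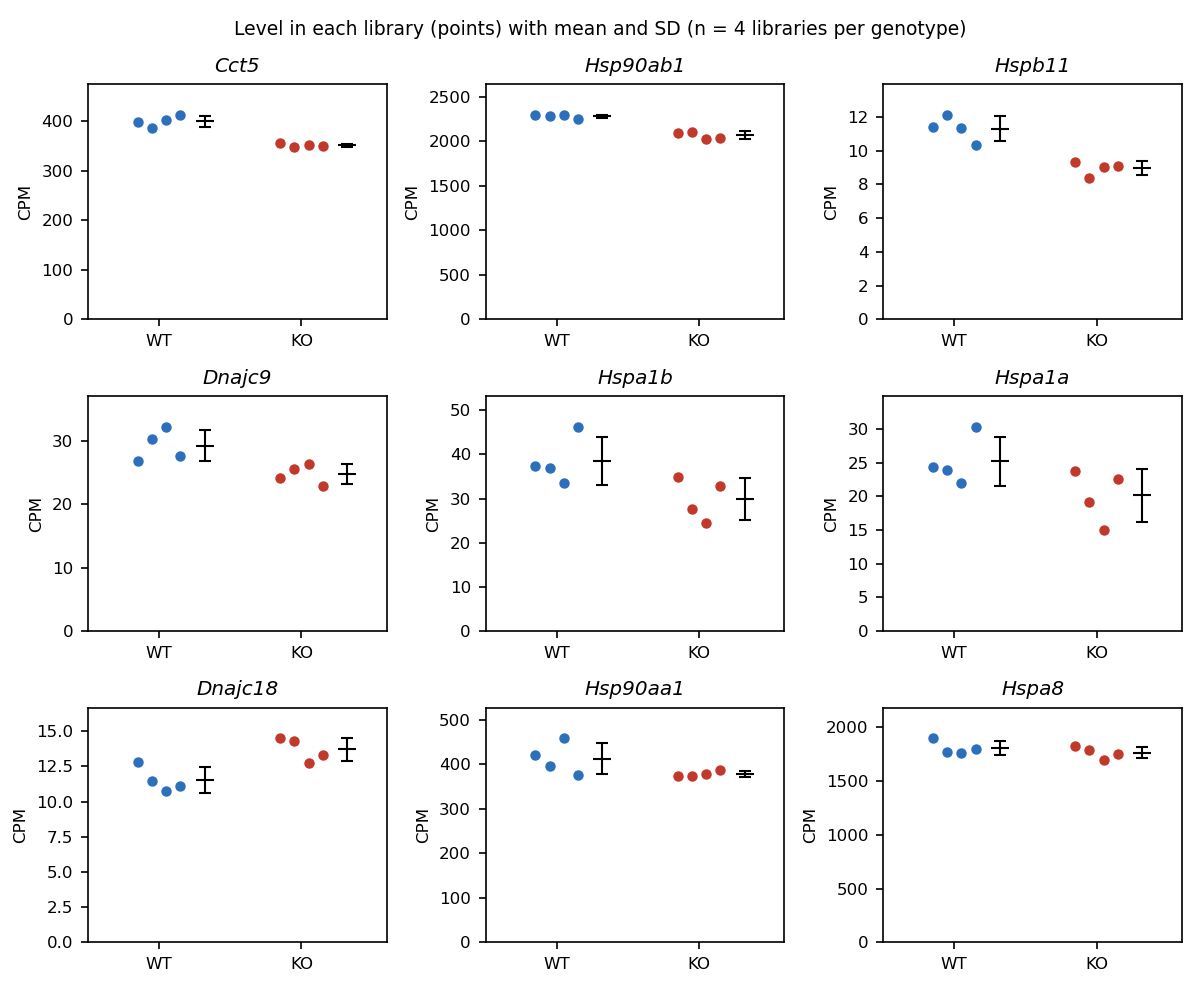
CPM in every library (points) with the mean and SD of 4 libraries, for the called members and for Hspa1a, Hsp90aa1 and Hspa8. Cct5, Hsp90ab1, Hspb11 and Dnajc9 separate by genotype with KO below WT, whereas Hspa1b, Hspa1a, Dnajc18, Hsp90aa1 and Hspa8 overlap.

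Hspa4l, a relative of HSP110 (Gene ID 18415, chr3:40744500-40796103), was described after its values were seen, because the deposited units disagreed for it. By counts it was at 153, 131, 151 and 141 CPM in KO and at 158, 125, 160 and 141 CPM in WT, and it did not pass (-0.024 ± 0.074, edgeR adjusted p = 0.879). The authors' FPKM values were 27.9, 22.9, 27.3 and 24.9 in KO and 19.5, 13.5, 16.9 and 13.6 in WT, so on that scale every KO library lay above every WT library and the ratio of means was 1.62. Dividing CPM by FPKM gives the length, in kilobases, that the FPKM values imply. It was 5.60 ± 0.115 kb in KO and 9.29 ± 0.939 kb in WT.

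This difference in implied length was rare. Of 10527 tested genes with a mean of at least 5 CPM, 3 (0.0285%) differed more than 1.5-fold between genotypes in implied length, and Hspa4l was the only one of 56 members to do so. In GENCODE the gene has coding transcripts of 9479 and 2744 bases beside shorter ones. The implied length thus differed between libraries for the same gene, and whether the authors' FPKM used different lengths was not tested. A difference in FPKM alone was not read as a difference in level for any member. Which transcripts were present was not measured by the gene-level counts.

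**Figure D5:**
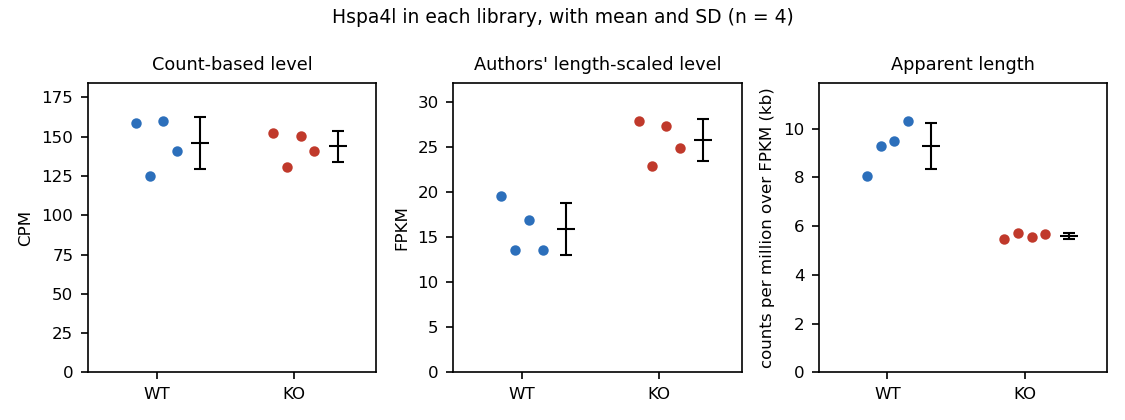
Hspa4l in each library (points) with mean and SD of 4 libraries: CPM, the authors' FPKM, and the length in kilobases implied by dividing the one by the other. The genotypes overlap in CPM, while FPKM is 25.7 in KO against 15.9 in WT and the implied length 5.60 kb against 9.29 kb.

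In the mitochondrial matrix the HSP70 Hspa9 passes imported proteins to the HSP60 chamber made by Hspd1 and closed by Hspe1. None of the 6 tested members of this role passed in edgeR, DESeq2 or limma-voom, 1 was lower at an unadjusted p under 0.05 in edgeR, and their median log2 fold change was -0.039. Hspa9 was at 733 ± 12.1 CPM in KO and 724 ± 21.2 in WT, with a 95% interval for the log2 fold change of -0.06 to 0.09. Hspd1 was at 365 ± 2.79 and 379 ± 27.5 CPM (log2 fold change -0.056, 95% interval -0.16 to 0.05). Hspe1 was at 78.3, 79.96, 81.8 and 78.8 CPM in KO and at 84.7, 83.2, 90.6 and 85.9 CPM in WT, which did not overlap, but it did not pass (-0.11 ± 0.042, edgeR adjusted p = 0.0956). The annotated spans of Hspd1 and Hspe1 overlap, 44.8% of each transcript's 50-base words recur in other genes, and whether counting used the strand is not given, so either value may hold reads of another gene. The FPKM ratio of Hspd1 to Hspe1 was 1.47 to 1.51 in the KO libraries and 1.32 to 1.51 in the WT libraries.

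J-domain proteins bring clients to HSP70 and stimulate its ATP hydrolysis. Of 33 tested in the DNAJA, DNAJB and DNAJC classes outside the mitochondrial role, 1 was lower and 1 higher (6.06% called, beside 15.9% of all tested genes). Dnajc9, a histone chaperone that links HSP70 to histones H3 and H4 (Gene ID 108671, chr14:20384638-20388910), was at 24.1, 25.6, 26.4 and 22.9 CPM in KO and at 26.8, 30.3, 32.3 and 27.7 CPM in WT. The genotypes did not overlap, with KO 7 just under WT 13. Dnajc9 fell by 0.24 on the log2 scale (SE 0.068, edgeR adjusted p = 0.0263). The call was lost without KO 5, KO 8, WT 14 or WT 15, at adjusted p of 0.0527 to 0.100, with log2 fold changes of -0.23 to -0.19.

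Dnajc18, a J-domain protein of the endoplasmic reticulum membrane (Gene ID 76594, chromosome 18), was the 1 member that rose. It was at 14.5, 14.3, 12.8 and 13.3 CPM in KO and at 12.8, 11.5, 10.7 and 11.1 CPM in WT. KO 7 and WT 13 met at the boundary, with WT 13 slightly above. The log2 fold change was 0.25 ± 0.075 (edgeR adjusted p = 0.0364). The call was lost without KO 5, KO 6, KO 8, WT 14, WT 15 or WT 16 and without a low-count filter, at adjusted p of 0.0556 to 0.107.

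The most abundant J-domain proteins did not pass in either direction. Dnaja1 and Dnaja2, the main partners of Hspa8, were at 107 and 266 CPM in KO and at 106 and 262 CPM in WT, and the 95% interval for Dnaja2 was -0.06 to 0.12. Dnajb6, which suppresses protein aggregation and carries a triple repeat, was at 141 and 140 CPM, and Dnajb12 at 73.8 and 71.5 CPM. Dnajc5, a J-domain protein of secretory vesicles, was at 226 CPM in KO and 241 in WT without overlap (-0.096, edgeR adjusted p = 0.106), and Dnajc14 at 159 and 147 CPM (0.11, edgeR adjusted p = 0.108). Dnajc14 passed without WT 15 (0.14, adjusted p = 0.0261). Dnajc17 and Dnajb2, named after their values were seen, also separated with KO below. They stood just outside the threshold, at log2 fold changes of -0.21 and -0.14 and edgeR adjusted p of 0.0547 and 0.0628. Yet of the 33 tested in these classes, 20 had fold changes above 0 and 13 below, with a median of 0.029. At an unadjusted p under 0.05 in edgeR, 7 were higher and 4 lower, and no member outside these classes was higher. Dnajc28, also named after its values were seen, had the largest rise of any tested member (0.275, edgeR adjusted p = 0.117, libraries overlapping).

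The small heat shock proteins were few and low. Hspb11 (Gene ID 72938, chr4:107253593-107284497) was at 9.32, 8.35, 9.05 and 9.06 CPM in KO and at 11.4, 12.1, 11.4 and 10.3 CPM in WT. All KO libraries lay below all WT libraries. The log2 fold change was -0.34 ± 0.074 (edgeR adjusted p = 0.0068), and Hspb11 passed in all 15 alternative settings. Despite its symbol this gene is known as a subunit of the intraflagellar transport complex that builds cilia, so its fall is not that of a heat shock chaperone. Hspb6, a true small heat shock protein known from muscle, was at 6.90 ± 0.674 CPM in KO and 8.83 ± 1.44 in WT and did not pass (-0.35, edgeR adjusted p = 0.0598). It passed with DESeq2 (adjusted p = 0.0335), without KO 6 (-0.42, adjusted p = 0.0474) and without WT 15 (-0.46, adjusted p = 0.0050).

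Genes that work with the members were described from lists of cochaperones and cofactors. Of 18 cochaperones of HSP90, 1 rose and 2 fell (16.7%, near the 15.9% of all tested genes called), with a median of -0.070. Fkbp5, an immunophilin that holds steroid receptors in a low-affinity state and is induced by glucocorticoids, was at 75.0, 68.7, 72.3 and 80.1 CPM in KO and at 51.0, 52.0, 52.9 and 54.9 CPM in WT. Fkbp5 rose by 0.49 ± 0.052, a rise of 40.5%, and its KO libraries lay above all WT libraries. Fkbp4, the immunophilin with the opposite action on those receptors, fell from 277 to 244 CPM (-0.18, edgeR adjusted p = 0.0034). Ptges3 (p23), which stabilises the closed form of HSP90, fell from 274 to 235 CPM (-0.22, edgeR adjusted p = 0.0058).

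Nucleotide exchange factors and other helpers of HSP70 gave 2 lower of 10 and 0 higher in edgeR, DESeq2 and limma-voom. In edgeR 1 was higher at an unadjusted p under 0.05, and of all tested genes 8.26% were lower. Grpel2, an exchange factor for Hspa9, fell from 125 to 98.7 CPM (-0.34 ± 0.048, edgeR adjusted p = 0.0004), while Hspa9 itself did not pass. Bag2, an exchange factor that restrains the ubiquitin ligase CHIP, fell from 39.5 to 31.5 CPM (-0.33 ± 0.053, edgeR adjusted p = 0.0010). Both were separated in all libraries. Among 12 genes of mitochondrial proteostasis 1 fell (8.33%, beside 8.26% of all tested genes), the matrix protease Lonp1, from 194 to 170 CPM (-0.19, edgeR adjusted p = 0.0106). Of 12 genes of prefoldin, which delivers clients to CCT, and of CCT cofactors none passed in edgeR, DESeq2 or limma-voom, 2 were lower at an unadjusted p under 0.05 in edgeR, and the median was -0.037; the most abundant, Pfdn5 and Pdcl3, were at 86.2 and 81.9 CPM in KO and 92.6 and 82.2 in WT.

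The list of other heat shock factors and regulators had 4 of 5 genes tested, and 1 was lower, where 8.26% of all tested genes were. Hsf4 was at 10.8, 8.62, 8.78 and 8.65 CPM in KO and at 11.4, 10.6, 10.4 and 12.9 CPM in WT. KO 5 lay inside the WT range, and the value was just past the threshold (-0.30, edgeR adjusted p = 0.0495). The Hsf4 call was lost in 8 of 15 alternative settings, including without KO 6, KO 7, KO 8, WT 13 or WT 16, at adjusted p of 0.0508 to 0.143. For the endoplasmic reticulum chaperones kept out of the membership, 2 of 5 were lower, where 8.26% of all tested genes were. Hspa5 (BiP) fell from 513 to 432 CPM (-0.25, edgeR adjusted p = 0.0056) and Hsp90b1 (GRP94) from 686 to 620 CPM (-0.15, edgeR adjusted p = 0.0289), the latter call being lost without KO 5, KO 7, KO 8 or WT 13 and without a low-count filter, at adjusted p of 0.0511 to 0.102.

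Added up by role, the KO libraries lay below the WT libraries for HSP90 (2399 to 2482 against 2622 to 2750 CPM), for CCT and for the small heat shock proteins (18.6 to 20.7 against 21.5 to 25.9 CPM). Without Hspb11 the small heat shock proteins overlapped (9.53 to 11.4 against 10.1 to 14.5 CPM), as CCT did without Cct5. The libraries overlapped for HSP70 and HSP110, for the mitochondrial role, for each class of J-domain protein and for Hsf1. The same roles separated and overlapped with upper quartile scaling, DESeq2-style size factors and library totals alone. HSP90 made up 24.0%, CCT 23.4% and HSP70 with HSP110 22.1% of the members' CPM. The KO organoids also differed in markers of cell state. Of 7 proliferation markers 6 were lower (sum 944 to 997 CPM in KO, 1111 to 1300 in WT). Of 7 goblet cell markers 4 were lower (108 to 136 against 151 to 203 CPM). Both sums were without overlap, and 8.26% of all tested genes were lower. Of 11 epithelial markers 4 were higher and 0 lower, where 7.63% of all tested genes were higher. The epithelial sums did not overlap, but without Car1, at 1730 CPM in KO and 888 in WT, they did. Epcam, Cdh1, Krt18, Cdx1 and Cldn7 had fold changes below 0. The part of these marker differences in the levels of Cct5, Hsp90ab1 and Dnajc9 was not tested.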

How the data were processed

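RNA was sequenced from 4 KO and 4 WT organoid libraries made with a stranded mRNA kit, per the labels' protocols. The deposited counts are whole numbers per gene and library; the authors' FPKM and TPM values stand in the same table. The submitters' processing notes name HTSeq, Bowtie2, TopHat and TopHat2 and the build GRCm38; versions, annotation and strand setting are not given in the sources used here. The value 2 was more frequent than 1 in each library, and if each mate of a pair was counted this would raise the limit for a count of 0 to between 0.122 and 0.161 CPM. FPKM and TPM were described only, without tests.

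The test was edgeR's quasi-likelihood test (edgeR 4.0.16, R 4.3.3) after filterByExpr and TMM scaling, and p-values were adjusted by Benjamini-Hochberg over the 14945 genes that passed, with 0.05 as threshold. CPM is TMM-scaled, and an SE is the log2 fold change divided by the square root of F. No 2 libraries held identical values; a chi-square per degree of freedom was 4.96 to 24.7 within genotypes and 25.7 to 41.5 between them. Shared sequence was counted as 50-base words over GENCODE transcripts for 77 members. Of these, 22 shared more than 10% of their words with other genes. Besides those given above, they include Hspb1 (51.6%), Dnajb6 (42.8%), Dnaja1 (28.8%), Dnajc14 (25.6%), Dnajc17 (25.4%) and Tcp1 (22.2%). How far their counts hold reads of other genes was not tested. The step was tested on simulated data. Alternatives were other scalings, DESeq2 1.42.0, limma-voom (limma 3.58.1), other low-count filters and leaving out each library. Tables were handled with Python 3.11.15 and pandas 2.3.3, and plots drawn with matplotlib 3.10.9.

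Members and lists were chosen with earlier results of these data known. Named were all called members, 10 stress-response genes of fixed name, the 2 most abundant members per role, and up to 3 called (otherwise the 2 most abundant) genes per cochaperone list; others are said to have been named after their values were seen.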

Additional observations from a re-analysis of the deposited data

Results flagged for a closer look

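In groups of 4 libraries, 72 were examined for 1 library standing apart from the other 3, and 2 had one; chance gives about 1 in 20. Dnajc5 was at 231 CPM in WT 14, with the other WT libraries at 243 to 246 CPM. Hsf4 was at 10.8 CPM in KO 5, with the other KO libraries at 8.62 to 8.78 CPM. Outside the counts, the authors' FPKM for Hspa4l averaged 25.7 in KO, above the WT libraries at 13.5 to 19.5, whereas its CPM values overlapped.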

How the results depend on the processing

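The number of members lower in KO was 5 in edgeR and 4 to 5 under other scalings, filters and limma-voom, but 9 with DESeq2, which added Cct7, Dnajb2, Hspb6 and Tcp1; it was 3 to 6 when 1 library was left out. The number higher was 1, and 0 without a low-count filter, and 0 to 3 when 1 library was left out (3 without WT 15, 2 without KO 7, 0 without KO 5, KO 6, KO 8 or WT 16). Cct5, Hspb11 and Hsp90ab1 passed in all 15 settings, and no called member changed direction in any of them. Directions turned only for values near 0 when 1 library was left out: Hspb1 (log2 fold changes of -0.036 to 0.15), Hsph1 (-0.034 to 0.038), Dnaja1 (-0.021 to 0.068), Dnaja2 (-0.0059 to 0.051) and Pdcl3 (-0.022 to 0.019). For the 36 named genes, 492 alternative values kept their direction and side of the threshold, 30 lost the call, 5 gained it and 12 turned. The cause was not tested. No paired analysis was possible because the genotypes share no replicate number in the labels. The 13 members with too few counts were not tested, and members under 1 CPM have wide intervals.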
